A study of Mus musculus with 76 samples.

Results

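The step described here runs from natural double positive thymocytes (DP), which carry both coreceptors CD4 and CD8, to natural CD4 single positive thymocytes (CD4_SP), which keep CD4 alone. Its libraries were chosen by their labels and comprise 4 DP and 3 CD4_SP libraries of the 76 in the series. RNA levels are in FPKM, fragments scaled to transcript length and to the fragments mapped in the library. The comparison covers all genes, of which 17416 of 37980 were tested, those that reached 1 FPKM in 2 or more libraries of the series. Each library was made from polyA RNA of 1000 sorted thymus cells of C57BL/6 mice, and no transgene or treatment is given for either group. All samples carry 1 common protocol text, so the labels do not say from which mice the natural cells came, nor their age, their sex, the antibodies of the sort or whether libraries of a group came from separate animals. The p-values rest on the spread between libraries within a group, pooled over all groups of the series. That spread may therefore be technical. Beside the step stand 3 natural CD8 single positive (CD8_SP) libraries, and 3 induced DP (iDP) and 4 induced CD4_SP (iCD4_SP) libraries. The induced cells were sorted from sublethally irradiated recipients of pro/pre-B cells that had been infected with a virus carrying Hoxb5, a homeobox transcription factor, on the same C57BL/6 background.

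As background, DP thymocytes in the cortex rearrange the T cell receptor alpha locus and die unless their receptor binds self peptide on MHC with moderate strength. Cells whose receptor sees MHC class II become CD4 cells under the transcription factor encoded by Zbtb7b, stop rearrangement and move to the medulla. They then gain the receptors for survival and exit signals, and leave for the blood through the sphingosine phosphate receptor encoded by S1pr1.

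Total FPKM ran from 824763 to 868206 in the DP libraries and from 868497 to 998626 in the CD4_SP libraries, so every CD4_SP total lay above every DP total. Over the 7 libraries the genes with at least 1 FPKM ran from 10007 to 10604, and their estimated fragments per FPKM and kilobase from 3.12 to 4.60. Pearson correlation across genes, which are not independent replicates, was 0.911 to 0.918 within DP, 0.910 to 0.930 within CD4_SP and 0.835 to 0.861 between the groups. Markers of other cells were summed over the members that no list of T cell genes holds. The 12 B cell markers summed to 512 to 815 FPKM in DP and 329 to 387 FPKM in CD4_SP, mostly Ighm, while Pax5 and Ms4a1 stayed at 0.252 FPKM or less. Of the 12, 5 reached 1 FPKM in a DP library and 7 in a CD4_SP library. In the test described below 4 rose and 2 fell, beside 13.2% and 13.5% of all genes, and 2 and 2 without CD4_SP replicate 2. The 17 myeloid markers summed to 0 to 4.59 FPKM in DP and 9.08 to 161 FPKM in CD4_SP, with Mpo, Elane, Lyz1, Csf1r, Ly6g and Cebpa listed at 0 in all 7 libraries. The 11 dendritic markers summed to 4.17 to 26.9 and 12.6 to 239 FPKM, the 11 natural killer markers to 161 to 241 and 50.2 to 267 FPKM, and the 10 gamma-delta and innate T markers to 4.86 to 14.7 and 33.5 to 96.1 FPKM. In DP the natural killer sum was mostly Gzma. The 9 erythroid markers summed to at most 2.87 FPKM, and the 12 stroma markers to at most 24.9 FPKM. CD4_SP replicate 2 stood apart in these sums: it held Siglech, a plasmacytoid dendritic cell gene, at 0.305, 79.7 and 0.608 FPKM in replicates 1, 2 and 3, and Tyrobp, a signalling adaptor of myeloid and natural killer cells, at 9.44, 147 and 3.98 FPKM. Counts below were therefore also taken without that library, and the part of such cells in the results was not tested. In RNA of sorted pools, fewer cells of a type and less RNA per cell cannot be told apart.

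**Figure D1:**
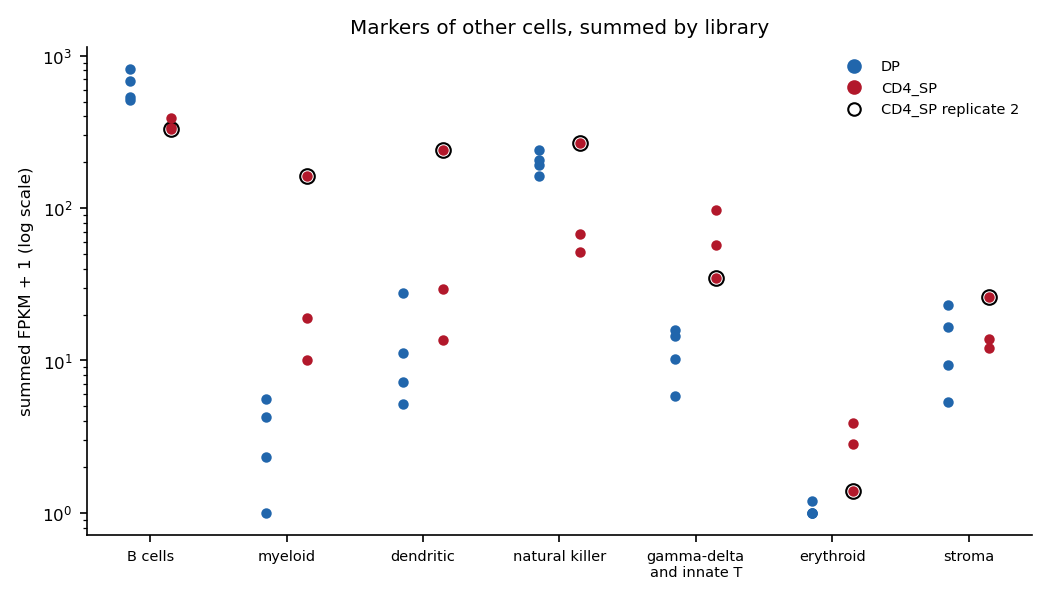
Summed FPKM plus 1 (log axis) of the markers of other cells in each DP and CD4_SP library, for members that no T cell list holds. Points are libraries and the open ring marks CD4_SP replicate 2, which has the highest myeloid sum (161 FPKM) and the highest dendritic sum (239 FPKM).

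The coreceptors were compared first, since they define the labels. Cd8a, the CD8 alpha chain, stood at 1117, 1020.0, 988 and 922 FPKM in the 4 DP libraries and at 0.674, 0.0998 and 2.68 FPKM in the 3 CD4_SP libraries. Cd8b1, the beta chain, stood at 2705, 2589, 2425 and 2355 FPKM in DP and 36.9, 33.8 and 65.8 FPKM in CD4_SP. Both fell without overlap of the groups, by 9.06 and 5.82 in log2(FPKM + 1). Cd4 was at 73.5, 95.8, 92.0 and 70.2 FPKM in DP and 61.0, 64.8 and 64.4 FPKM in CD4_SP, and its difference of -0.37 ± 0.22 (standard error, SE) did not pass the test (adjusted p = 0.25). Every CD4_SP value of Cd4 lay below every DP value. The residual RNA differed between the CD8 chains, with every CD4_SP value of Cd8b1 above every value of Cd8a.

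The step changed the RNA level of 4655 of the 17416 genes (26.7%) at an adjusted p under 0.05 in limma, with 2303 genes higher in CD4_SP (13.2%) and 2352 lower (13.5%). Differences are in log2(FPKM + 1), CD4_SP minus DP, a scale that understates changes of low genes. The median difference over all genes tested was 0.00. The 17416 genes include ones that reached 1 FPKM only in other groups of the series, which lowers these shares. With the filter set within DP and CD4_SP, 4802 of 11775 genes passed, 2324 higher and 2478 lower. Counts of list members below are to be read with this limit. Libraries of the groups did not overlap in 3358 genes (19.3%), of which 1694 were higher (9.73%) and 1664 lower (9.55%). Of the genes called, 334 were listed at 0 in all 4 DP libraries and 179 in all 3 CD4_SP libraries, and for these no difference is given below. The spread was estimated over all groups of the series. With only the 7 libraries in the fit, 1315 genes passed, 662 higher and 653 lower, and 1288 of them were among the 4655. List counts from that fit below are to be read beside these 662 and 653 of all 17416 genes. Without CD4_SP replicate 2, 3996 genes passed. With libraries scaled to an equal total the split turned to 1905 higher and 2767 lower, and the median difference of genes with a mean of at least 5 FPKM moved from -0.08 to -0.22.

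**Figure D2:**
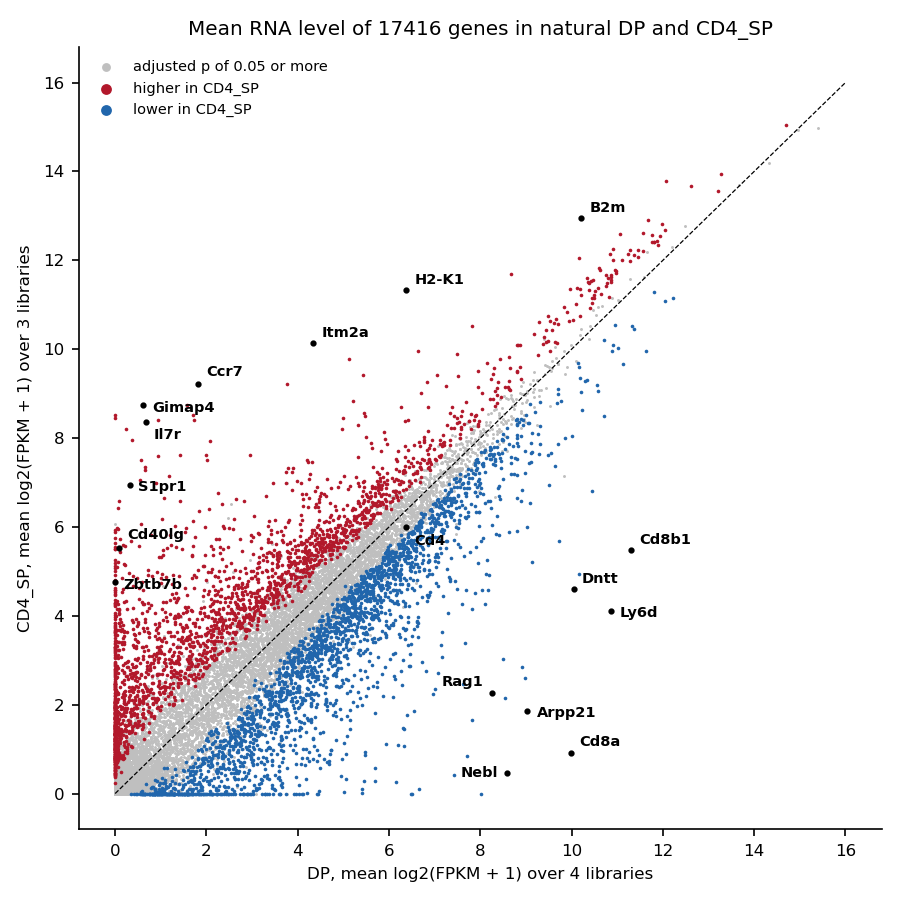
Mean log2(FPKM + 1) of each gene in 4 DP libraries (x axis) and 3 CD4_SP libraries (y axis), with the 2303 genes called higher in CD4_SP in red, the 2352 called lower in blue and the rest grey. The dashed line is equality, and the named genes show that the largest falls (Cd8a, Nebl, Arpp21) start from high DP levels while the largest rises (Gimap4, Il7r, Ccr7) start from low ones.

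The largest falls by the naming rule included those of Cd8a, Nebl, Arpp21, Endou, Chrna9, Ly6d, Rag2, Insl5, Dgkeos, Aqp11, Rag1, Tctex1d1, Cd8b1 and Dntt, from -9.06 to -5.44. Nebl, which encodes the actin binding protein nebulette, was at 523, 457, 348 and 251 FPKM in DP and 1.53, 0.0519 and 0 FPKM in CD4_SP. Arpp21, a cyclic AMP regulated phosphoprotein, was at 515, 569, 488 and 501 FPKM and 8.57, 4.00 and 0 FPKM. Ly6d, a surface protein of the Ly6 family, was at 2062, 1725, 1883 and 1777 FPKM and 18.0, 59.7 and 3.40 FPKM. The groups of these genes lay far apart, and CD4_SP replicate 3 had the lowest value in each. Insl5, an insulin-like peptide, was listed at 0 in all CD4_SP libraries against 82.0, 107, 68.4 and 98.1 FPKM in DP (adjusted p = 3.81e-16). Dgkeos lies antisense to Dgke, and reads of the pair cannot be told apart without strand.

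The 15 largest rises were those of Gimap4, S100a4, Il7r, Ctss, Ly6a, Ccr7, Ms4a4b, Igfbp4, Izumo1r, Cd53, Klk8, Ccnd2, S1pr1, Rgs1 and Samhd1, from 8.11 to 6.52. Ctss, the lysosomal protease cathepsin S, was at 0.699, 0, 0.616 and 0 FPKM in DP and 178, 297 and 279.8 FPKM in CD4_SP. Cd53, a tetraspanin of leukocytes, was at 2.62, 1.25, 3.84 and 1.96 FPKM and 341, 327 and 354 FPKM. Samhd1, which breaks down deoxynucleotides, was at 0.827, 0.304, 0.733 and 0.0796 FPKM and 137, 147 and 114 FPKM. These genes went from a few FPKM or less in each DP library to over 100 FPKM in each CD4_SP library. Rgs1, a brake on chemokine receptor signalling, moved from 3.40, 0.425, 0 and 0 FPKM to 157, 134 and 178 FPKM.

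Genes that mark the DP stage fell almost as a block. Of 20 listed genes, 19 fell and 1 rose, beside 13.5% and 13.2% of all genes, with a median difference of -3.27 against 0.00 over all genes, without CD4_SP replicate 2 the counts were 17 and 1, and with only the 7 libraries in the fit 16 and 0. Bcl2l1, a survival gene of DP cells, fell from 61.3, 54.4, 59.6 and 60.1 FPKM to 11.4, 6.09 and 19.8 FPKM (-2.29 ± 0.36, adjusted p = 6.79e-07). Its groups did not overlap. Themis, a T cell receptor signalling protein, fell by 2.44, and Plxnd1, a semaphorin receptor of DP cells, by 2.73. The weakest falls were those of Cd1d1 (-0.63 ± 0.23, adjusted p = 0.0386), Satb1 (-0.81 ± 0.20) and Slamf1 (-0.97 ± 0.34). Cd1d1 lost its call in 9 of 15 alternatives and Slamf1 in 6. The exception was Nrgn, a calmodulin binding protein, at 0.741, 0, 0 and 0 FPKM in DP and 1.78, 1.59 and 5.26 FPKM in CD4_SP. Ptcra, the surrogate alpha chain of the pre-T cell receptor, was uneven already in DP, at 46.1, 33.8, 3.18 and 7.39 FPKM, against 0, 5.80 and 0 FPKM in CD4_SP. Its groups overlapped in 1 library of each, although it passed the test (adjusted p = 6.49e-07). The list was composed of known DP genes, so its direction was fixed in part by that choice. The same limit applies to the lists below, whose members were chosen with earlier results of these data known.

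**Figure D3:**
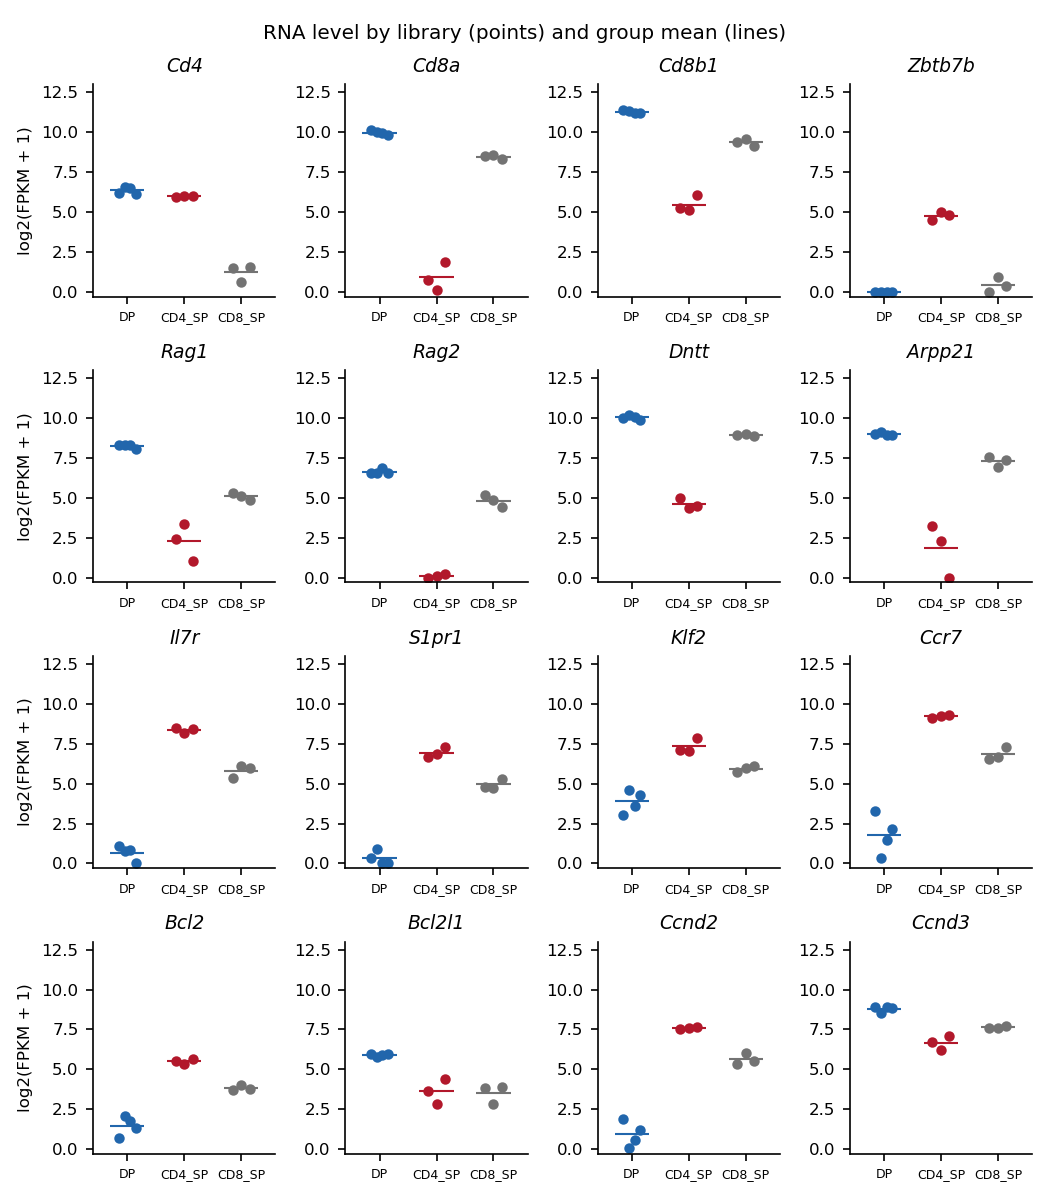
log2(FPKM + 1) of 16 genes in each library of DP (blue), CD4_SP (red) and CD8_SP (grey), with points for libraries and lines for group means. Zbtb7b is at 0 in all DP libraries and at 21.3 to 30.5 FPKM in CD4_SP, and Bcl2 and Bcl2l1, like Ccnd2 and Ccnd3, move in opposite directions between DP and CD4_SP.

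The rearrangement machinery was lowered part by part. Of 13 genes of V(D)J recombination and joining, 8 fell, none rose and 5 did not pass, with a median of -1.83. Of all genes 13.5% fell and 13.2% rose. Rag1, a subunit of the recombinase, stood at 323, 313, 323 and 265 FPKM in DP and 4.43, 9.22 and 1.02 FPKM in CD4_SP (-5.99 ± 0.29, adjusted p = 1.05e-24). Rag2, its partner, stood at 93.4, 95.1, 118 and 93.8 FPKM and 0, 0.0899 and 0.155 FPKM (-6.54 ± 0.39). In CD4_SP, Rag1 RNA kept 1.02 to 9.22 FPKM where Rag2 RNA was at or near 0. Dntt, the terminal transferase that adds untemplated bases at joints, was at 1037, 1158, 1071 and 957 FPKM and 30.2, 19.5 and 21.1 FPKM and remained the most abundant of the 3 in CD4_SP. Among the joining genes the test separated members of 1 complex. Xrcc6, the Ku70 subunit, fell from 546, 588, 516 and 599 FPKM to 36.7, 33.9 and 38.4 FPKM (-3.91 ± 0.17), while Xrcc5, its Ku80 partner, stood at 8.02, 9.77, 8.31 and 1.14 FPKM and 19.5, 15.3 and 6.27 FPKM (1.02 ± 0.40, adjusted p = 0.0509). Lig4, the joining ligase, fell by 3.12, and Xrcc4, its scaffold, differed by 0.37 ± 0.40 (adjusted p = 0.599). Hmgb1 and Hmgb2, DNA bending cofactors of the recombinase, fell by 1.83 and 2.08. Prkdc and Atm, kinases of the break response, and Nhej1 did not pass either. Xrcc5 passed as higher when DP replicate 1, 2 or 3 or CD4_SP replicate 3 was left out, with adjusted p between 0.00895 and 0.0355.

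The Rag1 promoter is shown because Rag1 is the gene the list turns on and its window holds E boxes, the kind of site that E proteins bind. Sequences here are the 250 bases before the RefSeq transcription start in GRCm38.p6, 5′ to 3′ on the gene's strand. Capitals mark matches, on either strand, of only the motifs named at each sequence. The Rag1 window also holds CAGGTG just before the capitals and CATCTG after them, both left in lower case. CAGCTG, a form of the E box CANNTG, was found in 5 of 14 windows of the list's genes and in 13% of all 32851 windows. CAGGTG, another form, was in 1 of the 14 and in 17.2% of all windows, and CANNTG itself in 11 of the 14 and in 66.2% of all windows. The E protein gene Tcf12 fell by 1.67 and Tcf3 by 0.96. A motif match is not a measured site, and a link between these falls and that of Rag1 was not tested.
Rag1, chr2:101649533-101649782, minus strand, CAGCTG in capitals: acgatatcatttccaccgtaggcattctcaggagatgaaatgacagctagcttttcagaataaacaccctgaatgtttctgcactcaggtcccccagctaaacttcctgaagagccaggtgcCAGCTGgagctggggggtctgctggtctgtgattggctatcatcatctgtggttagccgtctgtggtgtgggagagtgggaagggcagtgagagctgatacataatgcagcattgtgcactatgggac

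Lineage factors divided at this step. Zbtb7b, which encodes the factor that fixes CD4 fate, was listed at 0 in all 4 DP libraries and stood at 21.3, 30.5 and 26.7 FPKM in CD4_SP (adjusted p = 3.86e-19). Of 17 factors of both lineages, 4 rose, 6 fell and 7 did not pass, beside 13.2% higher and 13.5% lower of all genes. Their median was -0.18 (-0.19 without Zbtb7b), and with only the 7 libraries in the fit 4 rose and 3 fell. Gata3, which acts upstream of Zbtb7b, stood at 104, 82.4, 75.2 and 128 FPKM and 89.5, 120.2 and 121 FPKM and did not pass (adjusted p = 0.576). Tox, needed for CD4 development, rose from 17.3, 21.6, 10.1 and 12.3 FPKM to 34.0, 46.7 and 27.5 FPKM. Myb, a factor of DP survival, fell from 194, 218, 191 and 202 FPKM to 13.7, 14.8 and 3.85 FPKM (-4.28 ± 0.26), the largest fall of the list. The related HMG box factors moved apart: Tcf7 fell from 2236, 2410.0, 2058 and 2299 FPKM to 735, 850.4 and 849 FPKM, and Lef1 rose from 74.2, 78.5, 102 and 83.2 FPKM to 314, 381 and 324 FPKM. Neither pair of groups overlapped. Runx3, the factor of CD8 fate, also rose in CD4_SP, from 4.10, 3.95, 7.54 and 3.48 FPKM to 18.2, 19.4 and 15.6 FPKM (1.74 ± 0.26). The Id inhibitors of E proteins parted likewise, with Id2 at 69.2, 35.8, 26.2 and 50.8 FPKM and 403, 361 and 374 FPKM (3.12 ± 0.36) and Id3 at 184, 176, 156 and 172 FPKM and 33.3, 46.9 and 87.0 FPKM (-1.72 ± 0.39).

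Genes of the CD4 lineage mostly rose. Of 13 listed, 8 rose and 2 fell (Myb and Slamf6), beside 13.2% and 13.5% of all genes. Of the 13, 1 fell without DP replicate 1 or CD4_SP replicate 3. Cd40lg, the ligand by which helper cells license B cells, was at 0.258, 0, 0 and 0 FPKM in DP and 37.2, 58.8 and 42.4 FPKM in CD4_SP (5.45 ± 0.36). Icos, a costimulatory receptor, was at 5.24, 3.81, 0.0763 and 0.558 FPKM and 97.1, 83.5 and 105 FPKM (5.17 ± 0.43). Tnfsf8, the CD30 ligand, was listed at 0 in DP and stood at 7.21, 5.14 and 8.27 FPKM in CD4_SP. Genes listed for the CD8 lineage rose as well: of 15, 11 rose and 2 fell, those 2 being the coreceptor genes Cd8a and Cd8b1. Gzmb, a cytotoxic granule protease, stood at 0.220, 0, 0 and 0 FPKM in DP and 39.5, 47.1 and 119 FPKM in CD4_SP. Nkg7, a granule membrane protein, stood at 11.6, 0, 1.03 and 0 FPKM and 148, 121 and 154 FPKM, and Ccl5, a chemokine, at 0.924, 0, 1.56 and 0 FPKM and 148, 47.2 and 41.7 FPKM. Gzma, another granule protease, went the other way, from 161, 202, 239.8 and 191 FPKM to 4.22, 0.905 and 16.3 FPKM (-5.15 ± 0.41). Beside these, Klrb1c, which encodes the NK1.1 receptor, was listed at 0 in DP and stood at 16, 8.17 and 29.3 FPKM in CD4_SP, Ncr1 was at 0 in all 7 libraries, and Eomes was above 0 in CD4_SP replicate 1 alone. Tcrg-C1, a constant gene of the gamma receptor with near-identical copies, stood at 8.75, 13.7, 0.821 and 0.871 FPKM in DP and 19.1, 16.4 and 22.4 FPKM in CD4_SP. The part of innate or natural killer cells in these rises was not tested.

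RNA of the T cell receptor complex and its kinases did not move in one direction. Of 27 genes of the complex and its kinases, 8 rose and 8 fell, beside 13.2% and 13.5% of all genes, with a median of 0.19. With library weights 5 rose and 6 fell, where 1411 and 1371 of all 17416 genes did. With only the 7 libraries in the fit 4 rose and 6 fell, where 662 and 653 of all genes did. Trbc1, a beta constant gene, fell from 3294, 2682, 3497 and 3251 FPKM to 995, 1047 and 945 FPKM. Trbc2, the other, fell from 5136, 5229, 3909 and 5035 FPKM to 1977, 2137 and 2790.3 FPKM, although their near-identical sequence leaves the split between them uncertain. Trac, the alpha constant gene, was higher in every CD4_SP library (1146, 1105 and 1333 FPKM) than in every DP library (609, 648, 756 and 671 FPKM), but its difference of 0.83 ± 0.46 did not pass (adjusted p = 0.199). It passed with only the 7 libraries in the fit (adjusted p = 0.0103). Cd3g rose by 0.86 and Cd3e by 0.61 (adjusted p = 0.0469, lost in 8 of 15 alternatives), while Cd3d and Cd247 did not pass. The Src kinases moved in opposite directions: Lck fell from 2301, 2211, 1878 and 1923 FPKM to 1016, 931 and 1186 FPKM and Fyn rose from 45.5, 59.7, 48.8 and 41.3 FPKM to 215, 225 and 212 FPKM. Csk and Ptpn6, which restrain these kinases, rose by 1.04 and 1.03. Lat, the membrane scaffold, fell by 0.93, Sla and Sla2, adaptors that remove receptors from the surface, by 1.21 and 1.06, and Zap70 did not pass (adjusted p = 0.755).

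Targets of receptor signalling were in part higher after selection. Of 26 tested, 11 rose and 4 fell, beside 13.2% and 13.5% of all genes. The list's median was 0.88 (1.01 without the member at 0 in a group), and with only the 7 libraries in the fit 8 rose and 2 fell. Itm2a, a membrane protein induced in positive selection, stood at 10.5, 28.8, 12.5 and 35.4 FPKM in DP and 1041, 1135 and 1187 FPKM in CD4_SP (5.79 ± 0.36, adjusted p = 2.68e-20). Cd5, which tunes receptor sensitivity, stood at 50.4, 49.3, 75.0 and 75.4 FPKM and 251, 227 and 219.8 FPKM (1.90 ± 0.31). Nr4a3, an orphan nuclear receptor, rose by 3.32 and Egr1, an early zinc finger factor, by 1.84. Cd69, a surface marker of recent signalling, stood at 81.1, 105, 204 and 187 FPKM and 227, 248 and 204 FPKM, and Nr4a1, a relative of Nr4a3, at 17.9, 30.9, 16.8 and 34.6 FPKM and 39.4, 27.4 and 35.8 FPKM. Neither passed (adjusted p = 0.104 and 0.497), although Cd69 passed as higher with quantile normalization (adjusted p = 0.0467) and without DP replicate 3 (adjusted p = 0.0452). Bcl6, Spry1, Spry2 and Id3 fell, from -1.05 to -1.79.

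Maturation and exit genes rose in 20 of 25 cases, where 13.2% of all genes rose and 13.5% fell. The list's median was 3.02, 2 members fell (Cd24a and Ly6e), and the counts without CD4_SP replicate 2 were the same. This list too was composed of known maturation genes, which fixed its direction in part. Il7r, the interleukin 7 receptor, stood at 1.13, 0.693, 0.772 and 0 FPKM in DP and 354, 289.7 and 341 FPKM in CD4_SP (7.69 ± 0.24, adjusted p = 1.14e-33). S1pr1, the exit receptor, stood at 0.282, 0.872, 0 and 0 FPKM and 102, 117 and 155 FPKM (6.63 ± 0.40). Klf2, the factor that drives S1pr1, stood at 7.25, 23.6, 11.1 and 18.6 FPKM and 138, 129 and 232 FPKM (3.45 ± 0.42). Foxo1, which acts above both, rose from 28.3, 27.0, 21.7 and 26.1 FPKM to 110.3, 118 and 119 FPKM (2.13 ± 0.18). No DP library reached the lowest CD4_SP library in any of the 4. Cd52, a short surface glycoprotein, rose from 328 to 526 FPKM to 2879 to 3718 FPKM. Cd24a, the heat stable antigen lost with maturation, fell from 399.6, 434, 342 and 398 FPKM to 50.5, 58.9 and 65.7 FPKM, and Ly6e fell by 1.51. Cd69 and Cd24a are the markers of recent selection, and in CD4_SP their levels were 226 ± 21.8 and 58.4 ± 7.63 FPKM (SD, n = 3). In the series' mature T cell libraries Cd24a was at 3.10 ± 0.698 FPKM (SD, n = 3) and S1pr1 at 189 ± 15.6 FPKM.

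Homing receptors were exchanged. Of 27 tested, 13 rose and 5 fell, beside 13.2% and 13.5% of all genes, and with only the 7 libraries in the fit 11 and 2. Ccr7, the receptor that draws cells into the medulla, stood at 8.93, 0.263, 1.71 and 3.44 FPKM in DP and 557, 596 and 620.3 FPKM in CD4_SP (7.40 ± 0.45). Ccr9, the receptor of cortical cells for the thymic chemokine Ccl25, fell from 426, 482, 418 and 312 FPKM to 130.0, 182 and 127 FPKM (-1.48 ± 0.30). Ccr8, a chemokine receptor of activated T cells, was listed at 0 in DP and stood at 58.1, 23.7 and 27.8 FPKM in CD4_SP. Cxcr3, another, was listed at 0 in DP and stood at 32.7, 59.2 and 44.5 FPKM. The groups overlapped in none of these 4 receptors. Gpr183, an oxysterol receptor, rose by 5.15, the integrin gene Itgb7 by 4.00, the hyaluronan receptor gene Cd44 by 3.90 and Cd2 by 3.63. Cxcr4, the other chemokine receptor of DP cells, was low in both groups and did not pass (adjusted p = 0.521). Gimap genes, GTPases of lymphocyte survival, rose in 6 of 8 cases and none fell: Gimap4 stood at 1.69, 0, 1.07 and 0 FPKM and 401, 408 and 468 FPKM, while Gimap9 stood at 127, 128, 106 and 159 FPKM and 131, 131 and 159 FPKM (adjusted p = 0.858).

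Some members of the Bcl2 family moved in opposite directions. Of 15 tested, 3 rose, 3 fell and 9 did not pass, counts near the background of 13.2% and 13.5%, and with only the 7 libraries in the fit 2 rose and 3 fell. Bcl2 stood at 0.591, 3.16, 2.44 and 1.48 FPKM in DP and 45.3, 40.1 and 48.8 FPKM in CD4_SP (4.06 ± 0.26, adjusted p = 8.24e-20), against the fall of Bcl2l1 given above. Mcl1, a further protective member, rose by 0.46 (adjusted p = 0.0345), a call lost in 7 of 15 alternatives. Bcl2a1b, of a family of near-identical copies, was listed at 0 in DP and stood at 30.0, 55.5 and 51.6 FPKM in CD4_SP. Of the death promoting members, Bmf fell by 1.87 and Bid by 1.01, and Bcl2l11, the BIM gene of negative selection, stood at 35.4, 29.6, 38.2 and 32.6 FPKM and 33.8, 28.4 and 31.5 FPKM (adjusted p = 0.901).

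Cytokine receptor and JAK-STAT genes rose in 19 of 30 cases and 2 fell, where 13.2% of all genes rose and 13.5% fell. The list's median was 1.28, or 1.17 without members at 0 in DP. With only the 7 libraries in the fit, 11 rose and 1 fell, and 1 fell without DP replicate 2 or 4 or CD4_SP replicate 2 or 3. Il2rg, the common chain that Il7r needs, rose from 255, 224, 251 and 255 FPKM to 639, 487 and 593 FPKM (1.21 ± 0.16). Il2rb, a chain for interleukin 2, was listed at 0 in all DP libraries and stood at 27.0, 15 and 29.7 FPKM in CD4_SP. Il6ra, for interleukin 6, was likewise listed at 0 and stood at 12.6, 25.6 and 19.6 FPKM. Tgfbr2 rose by 3.39, Jak1 by 1.14, Jak3 by 1.84 and Cish, a feedback inhibitor, by 4.31. The chains of the interferon gamma receptor moved apart: Ifngr1 fell from 409, 492, 418 and 384 FPKM to 123, 151 and 162 FPKM and Ifngr2 rose from 10.2, 6.42, 10.6 and 6.94 FPKM to 34.7, 25.5 and 32.1 FPKM. Stat3, Stat5a, Stat5b and Stat6 did not pass.

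Costimulatory and NF-kB genes rose in 21 of 35 cases and fell in 5, beside 13.2% and 13.5% of all genes, with a median of 1.31. With only the 7 libraries in the fit, 12 rose and 2 fell, and the fallers were 2 without CD4_SP replicate 1 and 3 without CD4_SP replicate 2 or DP replicate 3. Among receptors, Tnfrsf4 (OX40) stood at 2.32, 31.4, 11.9 and 24.7 FPKM in DP and 259, 90.2 and 175 FPKM in CD4_SP (3.55 ± 0.61), and Tnfrsf9 (4-1BB) was listed at 0 in DP and stood at 29.2, 19.6 and 29.4 FPKM. Cd27 fell, from 581, 553, 586 and 522 FPKM to 246, 274 and 312 FPKM (-1.02 ± 0.32). Among ligands, Tnfsf11, the RANK ligand that shapes medullary epithelium, stood at 0, 0, 0.914 and 11.5 FPKM and 47.7, 67.5 and 27.9 FPKM, and Lta rose by 3.69. Among the transcription factors, Nfkb1 rose by 2.07 and Relb by 4.07, Rela and Rel did not pass, and Bcl3 was listed at 0 in DP and at 19.0, 35.2 and 29.8 FPKM in CD4_SP. Tnfrsf4 RNA was already at 11.9 FPKM or more in 3 of the 4 DP libraries, where Tnfrsf9 RNA was listed at 0. Of regulatory T genes, 10 of 12 rose and 1, Nrp1, fell, and none fell without CD4_SP replicate 2 or DP replicate 2. Foxp3, their defining factor, stood at 0.313, 0, 0 and 0.146 FPKM and 7.58, 13.2 and 9.05 FPKM. Il2ra, the high affinity chain for interleukin 2, stood at 0.0615, 0.0547, 0 and 0.457 FPKM and 7.46, 10.6 and 7.76 FPKM, and Izumo1r (folate receptor 4) at 0.247, 4.33, 5.67 and 1.58 FPKM and 430.5, 279 and 405 FPKM. The share of regulatory T cells in the sorted CD4_SP pool was not measured.

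**Figure D4:**
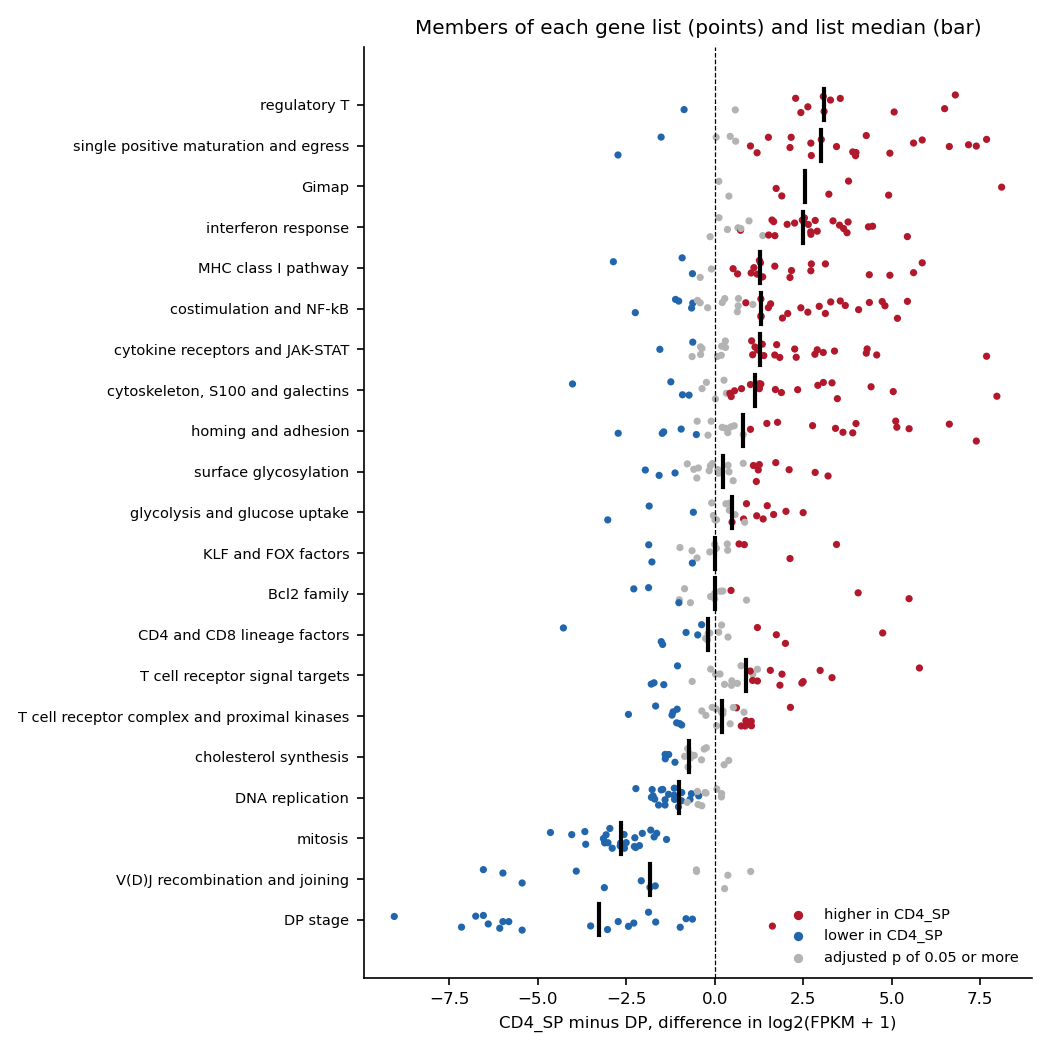
Difference in log2(FPKM + 1), CD4_SP minus DP, of each tested member of 21 gene lists, with points coloured by call and a bar at each list's median. Mitosis (median -2.66, 25 of 25 lower) lies wholly below 0, and interferon response (median 2.50) has 23 of 30 members higher. Of all genes 13.2% were higher and 13.5% lower. Points of genes listed at 0 in a group depend on the added 1 FPKM.

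Mitotic genes fell without exception among the 25 listed, and their libraries overlapped in none. The background share lower without overlap was 9.55% of genes. Their median was -2.66, and the counts were 25 without CD4_SP replicate 2, 24 with library weights and 20 with only the 7 libraries in the fit. Cdc20, an activator of the anaphase complex, stood at 157, 262, 70.8 and 89.7 FPKM in DP and 5.75, 1.57 and 6.78 FPKM in CD4_SP (-4.64 ± 0.44, adjusted p = 5.44e-13). Ccnb1, cyclin B1, stood at 83.6, 137, 109.8 and 119 FPKM and 8.56, 1.5 and 12 FPKM (-4.04 ± 0.36). The CD4_SP values of both lay below every DP value. Mki67, the Ki-67 antigen, stood at 43.9, 45.4, 38.2 and 46.2 FPKM and 8.27, 14.3 and 4.62 FPKM (-2.26 ± 0.27). CD4_SP kept some of this RNA: Top2a, topoisomerase 2 alpha, remained at 98.6, 84.6 and 91.8 FPKM against 519.7, 726, 454 and 516 FPKM, and mature T cell libraries held 5.33 ± 2.21 FPKM (SD, n = 3). DNA replication genes fell less. Of 30, 21 fell and none rose, beside 13.5% and 13.2% of all genes. The list's median was -1.0, with 8 lower when only the 7 libraries were in the fit. Dut, which clears uracil nucleotides, fell by 1.77 and Pcna, the sliding clamp, from 1344, 933, 1482 and 1339.8 FPKM to 675, 535 and 652 FPKM (-1.02 ± 0.17), while of the replicative helicase Mcm7 fell by 1.13 and Mcm3 and Mcm4 did not pass.

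The D cyclins were exchanged. Ccnd3, the cyclin of proliferating DP precursors, fell from 486, 364, 484 and 451 FPKM to 102, 71.8 and 135 FPKM (-2.14 ± 0.25), and Ccnd2 rose from 2.78, 0.0419, 0.461 and 1.31 FPKM to 186, 192 and 199 FPKM (6.66 ± 0.26, adjusted p = 1.26e-29). Cdk6, a partner of both, fell by 1.40, and Cdk4 rose by 0.42 (adjusted p = 0.0233), a call lost in 8 of 15 alternatives. Of the inhibitors, Cdkn2c (p18) fell from 98.6, 128, 113 and 117 FPKM to 18.9, 22.1 and 17.2 FPKM, and Cdkn1b (p27) stood at 35.1, 24.9, 29.6 and 29.0 FPKM and 27.7, 37.7 and 17.8 FPKM (adjusted p = 0.91). Over all 21 genes of cell cycle control and quiescence, 6 rose, 5 fell and 10 did not pass, with a median of -0.37. Of all genes 13.2% rose and 13.5% fell. With only the 7 libraries in the fit 5 rose and 3 fell, where 662 and 653 of all 17416 genes did.
The Cdc20 promoter is shown because Cdc20 had the largest fall of the mitosis list and its window holds CCAAT boxes, the motif of the factor NF-Y. CCAAT was found in 19 of 23 windows of the list's genes and in 33.8% of all windows. A match describes the sequence and is not a measured site.
Cdc20, chr4:118437344-118437593, minus strand, CCAAT in capitals: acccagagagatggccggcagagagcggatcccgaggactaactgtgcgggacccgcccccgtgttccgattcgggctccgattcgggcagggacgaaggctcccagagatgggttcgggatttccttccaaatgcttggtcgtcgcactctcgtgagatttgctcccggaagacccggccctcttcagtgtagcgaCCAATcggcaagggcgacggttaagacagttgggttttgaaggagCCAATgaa

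Interferon response genes rose in 23 of 30 cases and none fell, where 13.2% of all genes rose and 13.5% fell. The list's median was 2.50, or 2.15 without the 4 listed at 0 in all DP libraries. The count was 24 without CD4_SP replicate 2 and 14 with only the 7 libraries in the fit. Irf7, a transcription factor of the response, stood at 8.90, 0.417, 7.68 and 2.67 FPKM in DP and 41.4, 47.6 and 71.6 FPKM in CD4_SP (3.53 ± 0.45, adjusted p = 3.34e-09). Irf9, a DNA binding subunit, rose by 2.48, while Stat2 and Irf1 did not pass. Among effectors, Ifi27l2a stood at 23.2, 5.94, 26.4 and 6.50 FPKM and 582, 697 and 517 FPKM (5.45 ± 0.61). Isg15, a ubiquitin-like modifier, was listed at 0 in all 4 DP libraries and stood at 4.16, 15.1 and 29.6 FPKM in CD4_SP. Ifit1, an RNA binding antiviral protein, was also listed at 0 in DP and stood at 22.6, 13.8 and 29.8 FPKM. The order of the CD4_SP libraries differed between genes, and replicate 3 was highest for Isg15, Ifit1, Irf7 and Oas1a. Irf7 is also a gene of plasmacytoid dendritic cells, whose marker Siglech was high in replicate 2. Their part in the result was not tested, and the count without that library is given above. The receptor gene Ifnar1 stood at 39.0, 54.6, 61.9 and 37.4 FPKM and 56.7, 55.8 and 49.2 FPKM and did not pass (adjusted p = 0.67).

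MHC class I genes rose with them. Of 23 tested, 18 rose and 3 fell, beside 13.2% and 13.5% of all genes, with a median of 1.30. The fallers were 1 without CD4_SP replicate 2 or without DP replicate 1. With only the 7 libraries in the fit, 12 rose and none fell. H2-K1, a classical heavy chain, stood at 54.3, 95.8, 85.8 and 98.9 FPKM in DP and 2875, 2146 and 2713 FPKM in CD4_SP (4.95 ± 0.15, adjusted p = 6.14e-34). B2m, the light chain, stood at 1266, 1097, 1146 and 1243 FPKM and 6568, 8942 and 8361 FPKM (2.73 ± 0.10). Nlrc5, the transactivator of class I genes, stood at 1.75, 10.2, 0.926 and 3.23 FPKM and 189, 209 and 187 FPKM (5.62 ± 0.33). H2-D1 rose by 2.72 and H2-Q7 by 5.87, though heavy chain genes resemble each other and reads can be split between them. Of the peptide loading genes, Tap1 rose by 1.20 and Tapbp by 1.70, and Tap2 did not pass. The fallers were Cd1d1 and Cd1d2, which present lipids, and Tapbpl, a loading regulator.
The Isg15, Ifit1 and B2m promoters are shown as risers of these groups whose windows hold 2 copies of GAAA spaced by 2 bases (TTTC on the other strand), the core of the interferon response element. It was found in 12 of 28 windows of the interferon list, in 3 of 19 of the class I list and in 2.98% of all windows. CCAAT was found in 16 of 19 windows of the class I list and in 33.8% of all windows. The 3 matches in Isg15 overlap one another.
Isg15, chr4:156200819-156201068, minus strand, spaced GAAA copies in capitals: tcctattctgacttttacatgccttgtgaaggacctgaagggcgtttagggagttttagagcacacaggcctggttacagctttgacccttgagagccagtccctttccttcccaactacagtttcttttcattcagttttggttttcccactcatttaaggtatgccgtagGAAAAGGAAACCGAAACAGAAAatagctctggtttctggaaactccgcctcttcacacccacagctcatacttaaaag
Ifit1, chr19:34640639-34640888, plus strand, spaced TTTC copies in capitals: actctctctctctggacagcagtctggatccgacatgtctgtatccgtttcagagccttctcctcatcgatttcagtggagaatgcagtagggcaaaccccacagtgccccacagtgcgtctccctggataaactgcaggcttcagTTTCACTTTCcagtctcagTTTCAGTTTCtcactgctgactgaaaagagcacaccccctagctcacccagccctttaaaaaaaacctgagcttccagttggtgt
B2m, chr2:122147437-122147686, plus strand, spaced GAAA copies and CCAAT (here ATTGG) in capitals: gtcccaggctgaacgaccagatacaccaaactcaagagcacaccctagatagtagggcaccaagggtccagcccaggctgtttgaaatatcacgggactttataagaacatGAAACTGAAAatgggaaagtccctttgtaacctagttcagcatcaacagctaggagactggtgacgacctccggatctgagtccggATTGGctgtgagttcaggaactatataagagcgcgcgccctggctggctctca

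Cytoskeletal and metabolic genes shifted as well. Of 28 cytoskeleton, S100 and galectin genes, 19 rose and 4 fell, beside 13.2% and 13.5% of all genes. With only the 7 libraries in the fit 11 rose and 3 fell. S100a4, a calcium binding protein of motile cells, stood at 0, 0, 0.883 and 0 FPKM in DP and 252, 368 and 276 FPKM in CD4_SP. Vim, vimentin, stood at 130.3, 126, 71.5 and 81.7 FPKM and 841, 988 and 1186 FPKM (3.32 ± 0.23), and Tmsb10, an actin binding thymosin, at 29.3, 34.0, 31.7 and 28.2 FPKM and 288, 406 and 368 FPKM. Anxa2, an annexin, fell from 873, 824, 806 and 853 FPKM to 57.9, 51.4 and 44.0 FPKM (-4.02 ± 0.31), while Anxa6 rose by 2.92. Of 21 glycolysis genes, 9 rose and 3 fell, beside 13.2% and 13.5% of all genes. The counts were 5 and 2 with only the 7 libraries in the fit. The lactate dehydrogenase genes were exchanged: Ldhb fell from 467, 641, 481 and 502 FPKM to 79.5, 36.3 and 86.1 FPKM (-3.02 ± 0.32) and Ldha rose from 433, 385, 412 and 353 FPKM to 833, 1017 and 862 FPKM (1.19 ± 0.15). Slc2a3, a glucose transporter, rose by 2.50, and Slc2a1 did not pass (adjusted p = 0.215).

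The step differed from the step from DP to CD8_SP in 3948 genes (22.7%). The antibodies of the sort are not given, so the stage of the CD8_SP cells is known from the label alone and was not tested. The steps share the DP libraries, so their difference equals CD4_SP minus CD8_SP. Of these genes 2162 were higher (12.4%) and 1786 lower (10.3%) in CD4_SP, a split that turned to 1529 and 2253 when libraries were scaled to an equal total. By the naming rule the highest were Akr1c18, Cd40lg, Tnfrsf4, Cd4, Myo6 and Ccr8. Cd4 stood at 1.82, 0.568 and 2.01 FPKM in CD8_SP, Cd40lg at 0.0722, 0 and 0.225 FPKM and Zbtb7b at 0, 0.898 and 0.297 FPKM. These lineage genes were at 2.01 FPKM or less in every CD8_SP library. Akr1c18, a steroid reductase whose family members are similar in sequence, was listed at 0 in DP and CD8_SP and stood at 72.2, 28.5 and 47.3 FPKM in CD4_SP. Myo6, an unconventional myosin, stood at 0, 0, 0.0929 and 0.521 FPKM in DP, 0.360, 0.0651 and 0.842 FPKM in CD8_SP and 22.1, 46.8 and 41.8 FPKM in CD4_SP. The lowest were Cd8a, Gzma, Nt5dc2, Nebl, Prss57 and Arpp21. Of the 20 DP stage genes, 12 were lower in CD4_SP than in CD8_SP, 2 (Cd1d1 and Satb1) higher and 6 did not pass, and of the 13 V(D)J genes 7 were lower, 1 (Xrcc4) higher and 5 did not pass. Arpp21 was at 186, 122 and 164 FPKM, Rag1 at 38.9, 34.1 and 27.6 FPKM and Dntt at 499, 504 and 463 FPKM there, and their differences were -5.43 ± 0.36, -2.83 ± 0.31 and -4.34 ± 0.16. Of the 25 maturation genes, 19 were higher in CD4_SP than in CD8_SP, 2 (Cd24a and Ly6e) lower and 4 did not pass, with Il7r at 39.2, 67.2 and 63.2 FPKM (2.55 ± 0.26, adjusted p = 9.43e-12) and S1pr1 at 26.3, 26.0 and 38.7 FPKM. Of the 25 mitosis genes, 23 were lower in CD4_SP than in CD8_SP, and of the 30 replication genes, 29. Some genes of the step did not pass between CD4_SP and CD8_SP: the differences were -0.43 ± 0.65 for Nkg7 (adjusted p = 0.774) and 0.11 ± 0.28 for Runx3 (adjusted p = 0.951). Bcl2l1 stood at 13.5, 5.96 and 14.1 FPKM in CD8_SP, a difference of 0.09 ± 0.38, which did not pass either.

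The natural step was also set against the induced step from iDP to iCD4_SP, which shares no library with it. The steps differed in 3019 genes (17.3%), of which 1339 had the higher value in the natural step (7.69%) and 1680 the lower (9.65%). The lowest values were those of Nebl, Arpp21, Nt5dc2, Ly6d, Endou and Prss57, and the highest those of Cxcr3, Ly6c2, S100a4, Capg, Ms4a4b and Cst7. Of the 20 DP stage genes, 16 had the lower value in the natural step. Arpp21 stood at 212, 263 and 209 FPKM in iDP and 213, 171, 216 and 200.2 FPKM in iCD4_SP, a step of -0.18 against -7.16 in natural cells (difference -6.97 ± 0.48, adjusted p = 4.39e-17). Rag2 stood at 159, 178 and 119.8 FPKM and 112, 74.0, 113 and 89.8 FPKM in the induced groups. Both genes stayed high in iCD4_SP, while natural CD4_SP held 8.57 FPKM or less of each. All 25 mitosis genes and 26 of 30 replication genes had the lower value in the natural step, and Top2a stood at 482, 510.3 and 582 FPKM in iDP and 632, 565, 621 and 543 FPKM in iCD4_SP. Cd8a fell in both, to 16.4, 11.3, 22.2 and 16.8 FPKM in iCD4_SP, a step of -5.54. Il7r stood at 0.180, 0 and 0.0939 FPKM in iDP and 31.4, 45.9, 64.9 and 61.1 FPKM in iCD4_SP, a step of 5.52 against 7.69 (adjusted p = 2.2e-06). Of 25 maturation genes, 21 had the higher value in the natural step. Of the 30 interferon genes, 14 had the higher value in the natural step and none the lower. Of the 6 genes highest against CD8_SP, Myo6 and Cd4 did not pass between natural and induced steps. The induced step of Myo6 was 4.79, with a difference of 0.20 ± 0.56 (adjusted p = 0.954), and that of Cd4 was -1.02, with a difference of 0.66 ± 0.32 (adjusted p = 0.16).

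**Figure D5:**
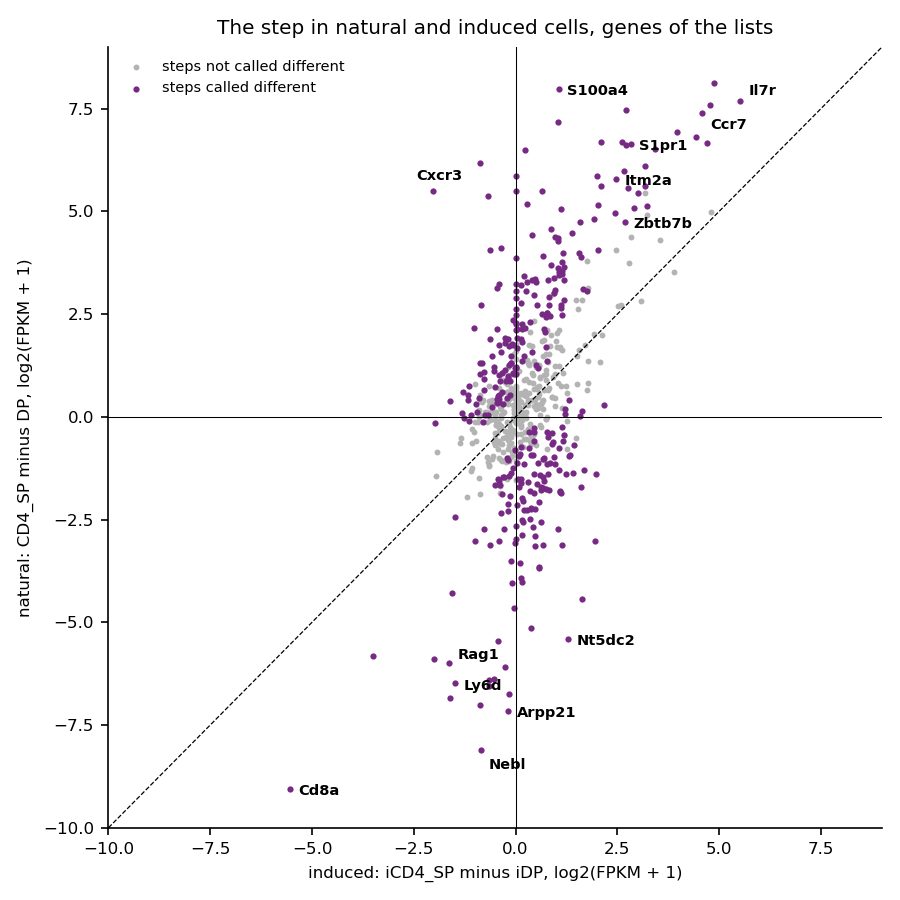
Difference in log2(FPKM + 1) of the step in induced cells (iCD4_SP minus iDP, x axis) and natural cells (CD4_SP minus DP, y axis) for tested genes of the lists and genes named by rule, purple where the steps were called different. The dashed line is equality. Arpp21, Nebl and Ly6d lie at -0.86 or above on the induced axis and at -6.76 or below on the natural axis.

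Set between its neighbours, the step reversed the course of some genes, given here as levels with no test. Il7r stood at 23.1 ± 3.45 FPKM (SD, n = 3) in DN4, the stage before DP, at 0.648 ± 0.472 FPKM (n = 4) in DP, at 328 ± 33.8 FPKM (n = 3) in CD4_SP and at 259 ± 36.4 FPKM (n = 3) in mature T cells. H2-K1 also had its lowest mean in DP but went on rising into mature T cells, at 406 ± 30.2, 83.7 ± 20.4, 2578 ± 383 and 5748 ± 579 FPKM in that order. Ccnd2 and Bcl2 too had their lowest of these 4 means in DP, at 1.15 ± 1.21 and 1.92 ± 1.12 FPKM. Rag1 and Bcl2l1 had their highest in DP, at 306 ± 27.6 and 58.8 ± 3.08 FPKM. Itm2a had its highest in CD4_SP, at 1121 ± 73.9 FPKM, against 54.0 ± 6.60 FPKM in mature T cells, and so did Lef1, at 340.1 ± 36.2 FPKM.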

How the data were processed

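The deposited table holds FPKM values per gene and library, which the authors made with bcl2fastq, TopHat, Cufflinks 2.2.1 and Cuffnorm on build NCBIM37, per the submitters' processing notes. Their parameters are not given in the sources used here. Symbols came from GENCODE vM21 for 32916 of 37980 gene IDs (86.7%). Its gene types served the naming rule and its exon lengths the estimate of depth, although the builds differ. No gene coordinates from it are given here. FPKM are not counts, so log2(FPKM + 1) was tested in limma 3.58.1 (R 4.3.3) with 1 mean per group over 75 distinct libraries (a Pro-_Pre-B library is identical to another and entered once), with a trended and robust spread, 51 residual degrees of freedom and two-sided Benjamini-Hochberg adjusted p under 0.05. A gene entered if 2 or more libraries held 1 FPKM or more.

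The step was compared as CD4_SP minus DP, and set against CD8_SP and the induced step. Members and lists were chosen with earlier results of these data known. The lists hold 678 symbols, of which 665 matched. Genes were named as list members, or by rank: the 15 highest and 15 lowest differences of the step, and 6 each in the other comparisons. A ranked gene passed the test, its higher group averaged 5 FPKM or more and its groups did not overlap (overlap was allowed between steps). The ranks skip receptor segments, small RNAs, pseudogenes and predicted genes. Some genes that meet these rules are not reported here.

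Depth was estimated from the steps of low values, which were near whole multiples in 82.6 to 92.4% of cases. No reads were recovered, so no count test was run. The fit was tested on simulated data. Promoters are RefSeq windows of GRCm38.p6, searched on both strands for 13 motifs, and those printed were chosen after their matches were seen. Alternatives were the pseudocount, filters, scaling, quantile normalization, library weights, a replicate block, a fit of the compared groups alone and each library left out. Python 3.11.15, numpy 2.4.6, pandas 2.3.3 and matplotlib 3.10.9 made tables and figures.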

Additional observations from a re-analysis of the deposited data

Results flagged for a closer look

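Some genes drew attention because 1 DP library stood apart: its gap to the nearest of the other 3, divided by the range of the group, passed Dixon's critical value for 4 samples. Chance flags about 1 in 20 groups of normally distributed values, which FPKM near 0 are not. A single library above 0 gives a ratio of 1.0 by construction. The genes looked at include 167 named genes that passed for the step and 40 that did not. The ratio was 1.0 for Capg, Cd40lg, Gzmb, Ms4a1, Nrgn, S100a4, Slfn1 and Tyrobp, where a single DP library was above 0. It was 0.99 for Relb, 0.963 for Igfbp4, 0.954 for Ly6a, 0.929 for Rag2, 0.907 for Ezh2, 0.92 for Tnfsf11, 0.912 for Nkg7, 0.885 for Tgfbr2, 0.876 for Il2rg, 0.875 for Rgs1, 0.866 for Il2ra, 0.857 for Cish, 0.853 for Hmgb1 and Trbc2, 0.848 for Runx3 and 0.84 for Mcm4. In Rag2 the library apart was DP replicate 3, the highest, and in Il2rg it was DP replicate 2, the lowest.

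The difference between the steps to CD4_SP and CD8_SP passed the test in 3948 genes. The log2 differences of the genes named by rule were 5.4 for Cd40lg, 5.02 for Tnfrsf4, 4.76 for Cd4, 4.7 for Myo6, -7.55 for Cd8a, -7.16 for Gzma, -7.14 for Nt5dc2, -6.37 for Nebl, -5.89 for Prss57 and -5.43 for Arpp21. The fitted values of Akr1c18 (5.56) and Ccr8 (4.56) involve a group listed at 0, depend on the added 1 FPKM and are no fold change.

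The difference between the natural and the induced step passed in 3019 genes. The named values were 7.07 for Ly6c2, 6.92 for S100a4, 6.28 for Capg, 6.13 for Ms4a4b, 6.05 for Cst7, -7.24 for Nebl, -6.97 for Arpp21, -6.7 for Nt5dc2, -6.6 for Ly6d, -6.14 for Endou and -6.07 for Prss57. The value of Cxcr3 (7.52) rests on DP libraries listed at 0 and is no fold change.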

How the results depend on the processing

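The count of genes past the threshold for CD4_SP minus DP was 1315 (662 higher, 653 lower) with only the groups compared in the fit, which leaves few libraries to estimate the spread, and 2782 (1411 higher, 1371 lower) with library weights, all 2782 among the 4655 genes of the reported fit. Leaving out 1 library gave 3996 to 4576 genes, 2121 to 2272 higher and 1875 to 2353 lower. For CD4_SP minus CD8_SP it was 1360 with only the groups compared, and 3277 to 3708 with 1 library left out. For natural minus induced it was 1221 with only the groups compared, 1887 with library weights and 2655 to 3119 with 1 library left out. The other alternatives (pseudocount, filters, scaling and quantile normalization) kept these counts within 1.5 times, with 1905 higher and 2767 lower for CD4_SP minus DP at an equal total. The labels do not say whether same-numbered libraries share an animal or a sort. The correlations of their deviations were -0.00, 0.02 and 0.01, which cannot decide this, since noise between libraries could hide a shared origin. With the replicate number as a block, 4843 genes passed for CD4_SP minus DP (2345 higher, 2498 lower), 4069 for CD4_SP minus CD8_SP and 2936 for natural minus induced. Of 167 genes named above that passed for CD4_SP minus DP, 134 passed in every alternative in which they were tested and none reversed. The call was lost in 9 of 15 alternatives for Cd1d1, in 8 for Cd3e and Cdk4, in 7 for Mcl1, in 6 for Ezh1, Slamf1, Slamf6 and Spry2, in 5 for Nrp1 and Tapbpl, and in 1 to 3 for the others. The differences that changed sign all belonged to genes that did not pass. With an equal total, Gimap9 was -0.038 and Stat3 -0.074, and with quantile normalization Ms4a1 was -0.061. With 1 library left out, the differences ran from -1.32 to 0.051 for Atm, -0.39 to 0.13 for Cdkn1b, -0.074 to 0.11 for Ms4a1, -0.017 to 0.43 for Rela, -0.58 to 0.18 for Stat2, -0.098 to 0.27 for Stat3 and -0.49 to 0.18 for Tap2. The cause was not tested. Depth limits low genes: 1 FPKM in a transcript of 1 kilobase was estimated at 3.12 to 4.60 fragments.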

Other observations

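Polycomb genes, which encode the complexes that hold genes silent through histone marks, changed in part. Of 23 tested, 7 were higher and 5 lower in CD4_SP, beside 13.2% and 13.5% of all genes. With only the 7 libraries in the fit 1 and 2 passed, where 662 and 653 of all 17416 genes did. With library weights 3 and 2 passed, where 1411 and 1371 of all genes did. These last counts lie near the shares of all genes. The counts were 4 higher without CD4_SP replicate 1 or 2, and 3 lower without DP replicate 2, 3 or 4 or CD4_SP replicate 1 or 3. Ezh2, the methyltransferase of dividing cells, stood at 280.1, 272, 189 and 276 FPKM in DP and 72.4, 47.7 and 73.9 FPKM in CD4_SP (-1.97 ± 0.29, adjusted p = 1.66e-07 in limma). Ezh1, its relative of resting cells, stood at 4.56, 14.3, 19.6 and 5.50 FPKM and 18.8, 22.9 and 18.8 FPKM (1.03 ± 0.33), a call lost in 6 of 15 alternatives. Phf19, an accessory subunit, fell by 3.57, and Bmi1, of the other complex, rose by 1.48, which did not pass with only the 7 libraries in the fit (adjusted p = 0.192). The groups of Ezh2 did not overlap.

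Genes that build the sugars of the T cell surface changed in part. Of 24 tested, 8 rose and 3 fell, beside 13.2% and 13.5% of all genes. The counts were 3 and 1 with only the 7 libraries in the fit. St6gal1, a sialyltransferase, stood at 32.5, 8.13, 17.9 and 21.0 FPKM in DP and 111, 136 and 159.6 FPKM in CD4_SP (2.84 ± 0.40), St3gal1 rose by 1.73, and Mgat4a, which branches N-glycans, fell by 1.57. Of 16 cholesterol synthesis genes 5 fell and none rose, with 3 lower without CD4_SP replicate 1, 8 without CD4_SP replicate 3 and 0 with only the 7 libraries in the fit. Of 8 Schlafen genes tested 5 rose, 2 with only the 7 libraries in the fit. Slfn1 stood at 0.319, 0, 0 and 0 FPKM in DP and 46.5, 52.1 and 57.5 FPKM in CD4_SP, in a family whose members resemble each other.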
